A study of Mus musculus with 13 samples.

Results

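Peak lists for the promoter mark H3K4me3 from 4 mouse leukaemia cell lines carry, beside the height of the mark, a low second track, which was used here to profile the chromosomes of each line. The profile rests on 49205 of the 69180 H3K4me3 peaks, namely those of 500 bp or more on chromosomes 1 to 19 that carry the second track, and the 9 deposited lists together hold 109165 peaks. Lines 748T, 106A and 961C express the NUP98-PHF23 fusion (NP23) on a C57BL/6 background, 748T and 106A from precursor T lymphoblastic leukaemia/lymphoma (pre-T LBL) of mice 748 and 106, and 961C from acute myeloid leukaemia (AML) of mouse 961. Line 7298/2, from an SCL-LMO1 pre-T LBL without NP23, comes from a hybrid of C57BL/6 and C3H. All lines are labelled as cytokine independent. Each line has 1 H3K4me3 library, so every value below describes a library, and 1 line against 3 cannot reach an exact permutation p below 0.25. Peaks numbered 12438 in 748T, 11744 in 106A and 12277 in 961C, against 12746 in 7298/2.

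In sonicated chromatin, DNA that carries no mark is recovered at a low, even rate, and the depth of such reads along a chromosome depends on how many copies of it the cells hold, on how open and mappable the sequence is, and on the reads' base composition. Gains of whole chromosomes are common in mouse lymphoid leukaemia lines, with chromosome 15, the carrier of the growth gene Myc, the best known. Copy number was not measured in these samples. On a scale where 2 copies read 1, 3 copies would read 1.5, 1 copy would read 0.5 and 5 copies would read 2.5.

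The lists do not say what the second track is, and it was checked first. In 961C, which has 3 lists, intervals whose ends lay within 20 bp of each other had nearly the same second-track mean in different lists. Between its H3K4me3 and NP23 lists, 210 of 223 such pairs differed by at most 0.1 read, and the correlation across pairs was 0.9987. The medians of these pairs were only 0.0177 and 0.0291 reads, so that tolerance was wide. Their median difference was 0.000219 reads. Between H3K27me3 and H3K4me3 the correlation was 0.9948 over 23 pairs, and between H3K27me3 and NP23 0.9971 over 28. Between pairs of H3K4me3 lists, matching intervals of different lines were less alike, with correlations from 0.1788 to 0.7987. Between H3K27me3 lists of different lines the correlations ranged from -0.7494 to 0.9222, on 6 to 11 pairs. The values of 961C were thus nearly the same beside each antibody, and over H3K4me3 peaks less like those of the other lines. No such comparison within a line was available for 748T, 106A or 7298/2. The track followed the height of the mark weakly within a list, with Spearman correlations across peaks of 0.1985 in 748T, 0.3535 in 106A and 0.1643 in 961C, against 0.09183 in 7298/2, where peaks share a library and are not replicates.

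The track was shallow in 748T and 961C and deeper in 106A and 7298/2. Its width-weighted mean over autosomal peaks was 0.253 reads in 748T, 1.57 reads in 106A and 0.322 reads in 961C, against 1.14 reads in 7298/2. Peaks at 0 made up 7.65% of 748T, 0.0426% of 106A, 4.76% of 961C and 0.0471% of 7298/2. The totals of reads are unknown, and each value below was divided by the line's own autosomal mean, here called the level. The spread given is the SD over bins of a chromosome, which holds both counting error and real differences between its bins.

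Most chromosomes of every line lay close to the autosomal mean. The number of chromosomes with a level between 0.9 and 1.1 was 16 of 19 in 748T, 15 in 106A and 18 in 961C, against 17 in 7298/2. Outside that range were chromosomes 5 (0.897), 14 (1.45) and 15 (1.46) in 748T. In 106A they were chromosomes 3 (1.27), 5 (1.15), 13 (0.878) and 17 (1.14), the last through single peaks described with that chromosome. Line 961C had chromosome 13 alone (0.783), and 7298/2 had chromosomes 6 (1.12) and 16 (1.14). Chromosomes 5 and 13 were thus outside the range in more than 1 line.

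**Figure D1:**
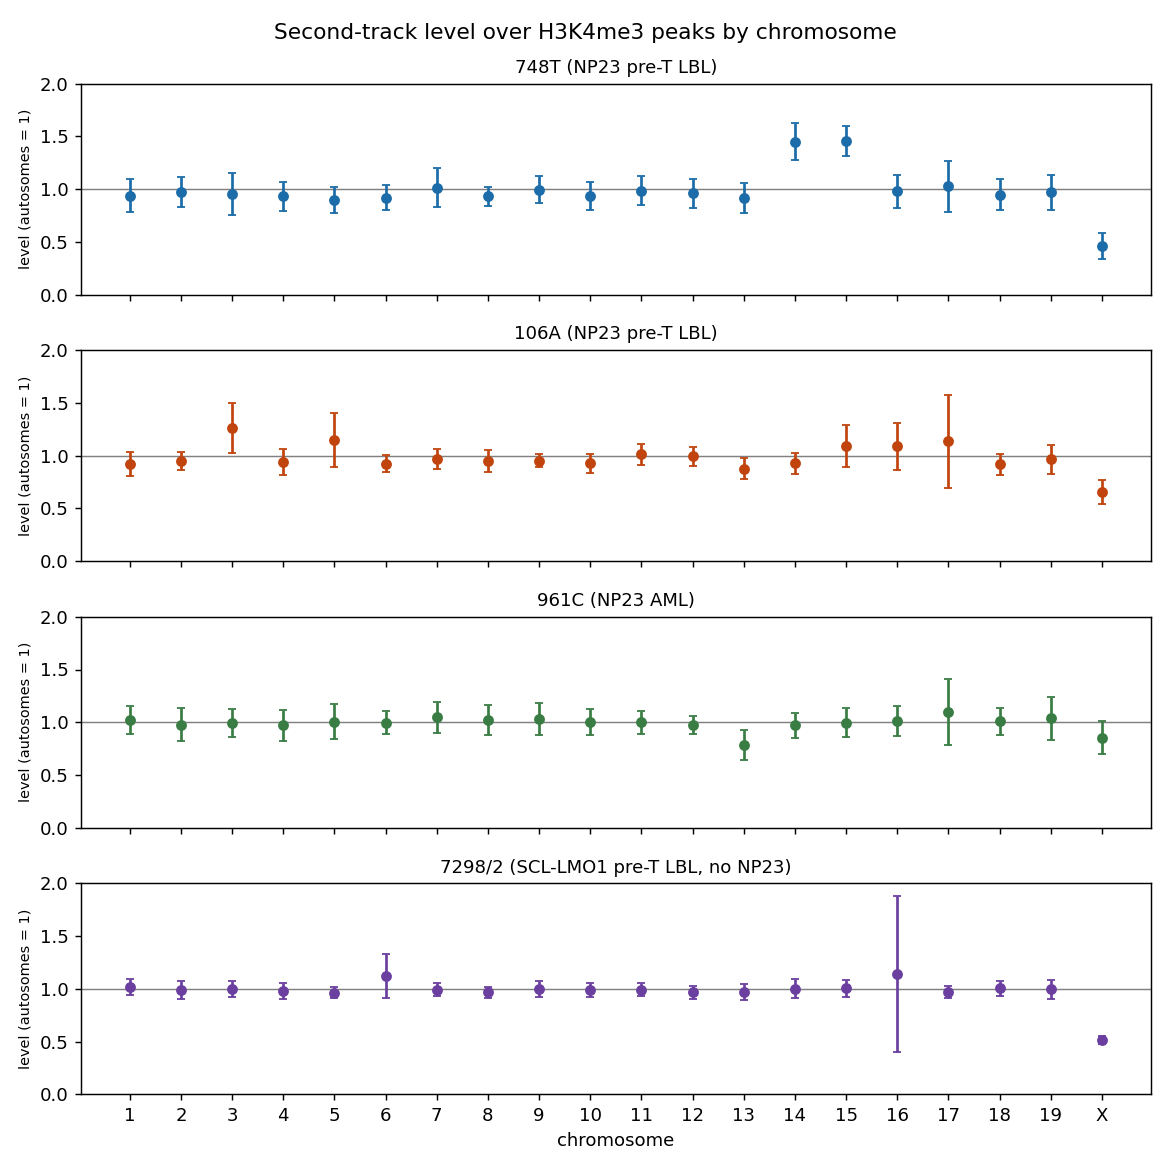
Level of the second track (vertical axis, autosomal mean of each line = 1) over H3K4me3 peaks of each chromosome in 748T, 106A, 961C and 7298/2. Points are width-weighted means and bars are 1 SD over 5 Mb bins. Chromosomes 14 and 15 of 748T stand near 1.5, chromosome 13 of 961C lies at 0.783, and chromosome 16 of 7298/2 has a mean of 1.14 with bins spread far to either side.

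Line 748T had 2 chromosomes at a raised level along their whole length. Chromosome 14, which carries the T cell receptor alpha locus, read 1.45 ± 0.178 (SD over 17 bins) in 748T, against 0.926 in 106A, 0.970 in 961C and 1.00 for 7298/2. In reads, this was a mean of 0.367 over 424 peaks, against 0.253 over all autosomes of 748T. All 17 bins of 5 Mb were above the same bin of each other line, and the lowest of them had a level of 1.02. Chromosome 15 read 1.46 ± 0.143 (SD over 16 bins) in 748T, against 1.09 in 106A, 0.997 in 961C and 1.00 for 7298/2. All 16 bins of chromosome 15 were above 1 in 748T, and 13 were above every other line. A fit of constant segments along each chromosome placed no step within either chromosome, so each was 1 segment, from 8606282 to 123383274 on chromosome 14 and from 3220526 to 103285369 on chromosome 15 (mm9). Set against the remainder of the genome of 748T, whose level was 0.959, chromosome 14 was 1.51 times and chromosome 15 was 1.52 times as high.

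In 106A the raised level covered parts of chromosomes, with the steps inside them. On chromosome 3 the middle stretch, 75361100 to 130975424, read 1.42 ± 0.166 (SD over 18 bins of 2.5 Mb) in 106A on 346 peaks, against 0.973 in 748T, 1.02 in 961C and 1.02 in 7298/2. The part before it read 1.14 ± 0.179 in 106A (162 peaks), against 0.929 in 748T, 0.974 in 961C and 0.959 in 7298/2. There too 106A was above each other line, unevenly, with 2.5 Mb bins from 0.860 to 1.445. The part after it, from 131227779, read 0.830 ± 0.0830 in 106A (81 peaks), against 0.908 in 748T, 0.899 in 961C and 1.00 in 7298/2. The chromosome as a whole, at 1.27, thus averaged 3 unequal parts. On chromosome 5 the level of 106A was 0.912 up to 115140954 and 1.43 ± 0.118 (SD over 13 bins) from 115157770 to 152453810, a step between peaks 16.8 kb apart. There, the other lines read 0.871 in 748T, 1.05 in 961C and 0.957 in 7298/2. Relative to the rest of the 106A genome the middle of chromosome 3 was 1.49 times and the end of chromosome 5 was 1.501 times as high.

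Chromosomes 15 and 16 of 106A also divided in 2. The proximal part of chromosome 15, 3220789 to 63856459, read 1.30 ± 0.155 in 106A (141 peaks), against 1.36 in 748T, 0.993 in 961C and 0.970 in 7298/2. Beyond 63890827 the level of 106A was 1.01, against 1.49 in 748T, 0.998 in 961C and 1.02 in 7298/2. Both NP23 pre-T lines were therefore above the other lines in the proximal part, and 748T alone in the distal part. On chromosome 16, 106A read 1.34 ± 0.205 (SD over 12 bins) from 49699289 to 98304352 on 129 peaks and 0.949 ± 0.0931 before 49504515. Over the same distal span 748T read 0.941, 961C read 0.992 and 7298/2 read 1.84. The span of 7298/2 includes its own raised end of that chromosome. Between 50 and 80 Mb, before that end, 4 bins of 106A averaged 1.31 ± 0.137, against 0.742 in 748T, 0.861 in 961C and 0.821 in 7298/2. Relative to the rest of the 106A genome, proximal chromosome 15 was 1.36 times and distal chromosome 16 was 1.41 times as high.

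**Figure D2:**
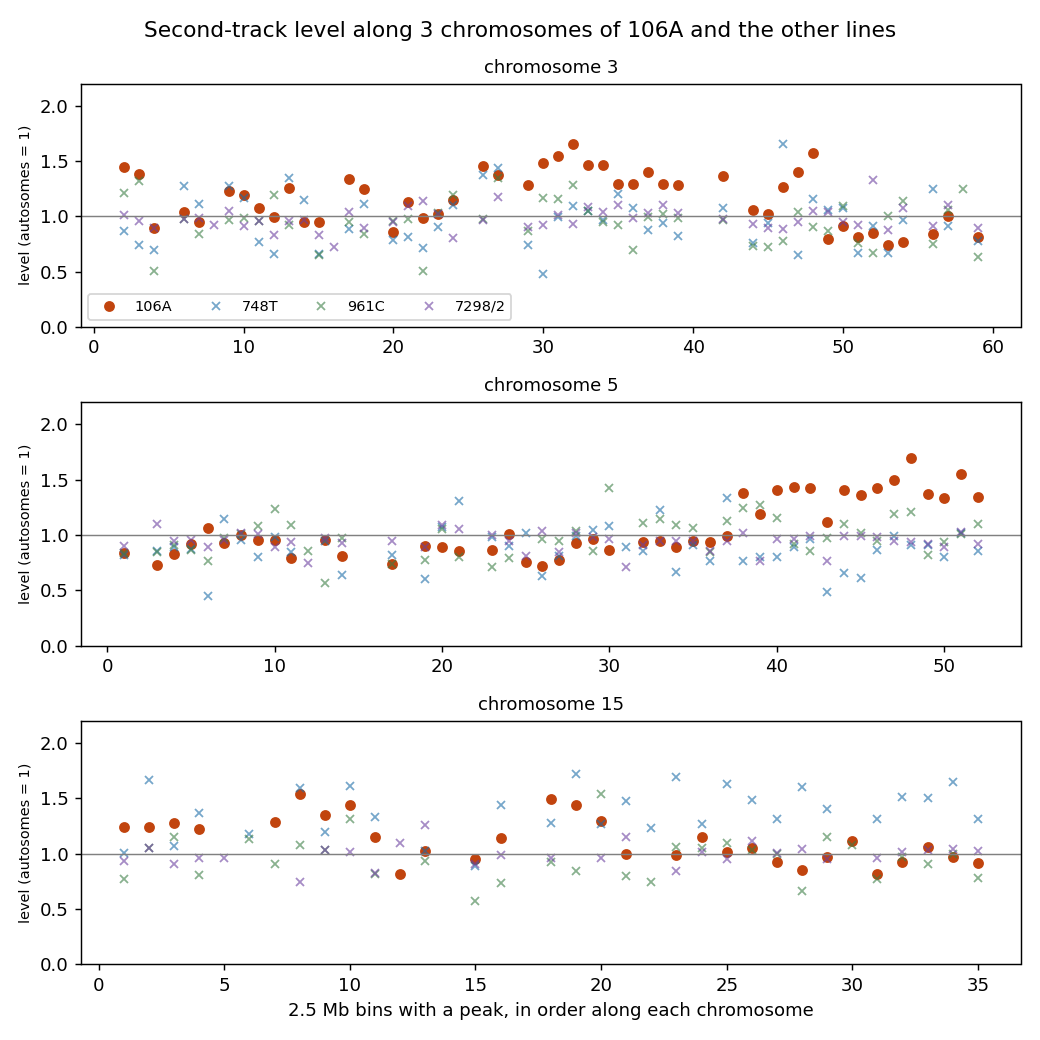
Level of the second track (vertical axis, autosomal mean of each line = 1) in 2.5 Mb bins, in order along chromosomes 3, 5 and 15 (horizontal axis). Filled circles are 106A and crosses are 748T, 961C and 7298/2, in bins with at least 3 peaks. Circles rise near the middle of chromosome 3 (1.42) and at the end of chromosome 5 (1.43), and on chromosome 15 they leave the crosses of 748T in the distal part.

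In the segment fit, line 961C, the AML line, had no raised stretch and 1 lowered one, the whole of chromosome 13. Chromosome 13 read 0.783 ± 0.142 (SD over 23 bins) in 961C on 570 peaks, against 0.917 in 748T, 0.876 in 106A and 0.972 in 7298/2. In 17 of the 23 bins 961C was below every other line. It was lowest between 60 and 85 Mb, where its 5 usable bins averaged 0.614 ± 0.0323, against 0.978 in 748T, 0.851 in 106A and 0.945 in 7298/2. All 5 of these bins were below all other lines, but the span was picked as a run of bins at 0.8 or less of the mean of the other lines. Its low values therefore follow in part from that choice. Relative to the rest of the 961C genome, chromosome 13 was 0.775 times and its part between 60 and 85 Mb was 0.612 times as high. The level of chromosome 13 was also below 1 in the other 3 lines, and the ratio of 961C to their mean, 0.849, was just past the fold of 0.85 at which a chromosome was counted as lowered. It missed that fold under 6 of 11 alternatives, with ratios from 0.818 to 0.872 over all 11. Chromosome 15 of 961C was past the fold as well, at a ratio of 0.842, but its level was 0.997, against 1.46 in 748T.

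In the segment fit used, line 7298/2, the SCL-LMO1 control, had shorter stretches than the NP23 lines, of 13.7 to 26.9 Mb. Those of 106A were 37.3 to 60.6 Mb, its 3.53 Mb segment on chromosome 17 left aside, and those of 748T and 961C whole chromosomes. These lengths depend on the penalty of the fit. A penalty of 12 started the chromosome 6 stretch of 7298/2 at 3290575, and a penalty of 4 divided that of 106A on chromosome 3. On chromosome 6, which carries the T cell receptor beta locus and the Hoxa genes, 7298/2 read 1.49 ± 0.0736 (SD over 8 bins of 2.5 Mb) from 24476557 to 51422492 on 151 peaks. Over these peaks' span 748T read 0.841, 106A read 0.913 and 961C read 0.877. Of the 151 peaks, 132 were above the autosomal mean of 7298/2, against 241 of the 467 peaks after the stretch. The stretch was fitted to these same values, so the count only describes it. The level of 7298/2 was 1.06 before this stretch and 1.00 after it. Whether the named loci lie within any stretch was not determined, since the gene table at hand is of another genome build (GRCm38.p6) and gives their chromosomes alone.

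Chromosome 16 of 7298/2 held 3 different levels. The proximal part, 3743177 to 25178262, read 0.494 ± 0.0631 (SD over 9 bins) in 7298/2 on 160 peaks, against 1.00 in 748T, 0.998 in 106A and 1.08 in 961C. Only 3 of the 160 peaks were above the autosomal mean, against 75 of the 182 peaks of the middle part. The parts were fitted to these same values, so counts of peaks above the mean, here and in the distal part, only describe them. The middle, 27388324 to 78578036, read 0.968 ± 0.163. The distal part, 84583460 to 98304090, read 2.47 ± 0.131 (SD over 6 bins) in 7298/2 on 91 peaks, against 1.01 in 748T, 1.37 in 106A and 1.12 in 961C, and 89 of its 91 peaks were above the mean. In reads the 3 parts had 0.564, 1.11 and 2.82 in 7298/2. Set against the rest of its genome, the proximal part was 0.4997 times and the distal part was 2.502 times as high. The 2 steps fell in gaps without members, 2210 kb wide after the proximal part and 6005 kb wide before the distal one, so their places are known no better than that.

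Among the known leukaemia genes on chromosome 16 are Runx1, Erg and Ets2, which encode transcription factors of blood cells, and their place relative to these steps was not determined either. Within the middle part, a short group of 8 peaks, 62785500 to 65563490, was chosen after its values were seen. It read 0.486 in 7298/2, each peak between 0.235 and 0.741, against 0.644 in 748T, 1.19 in 106A and 0.892 in 961C. Line 748T was low there too on 6 peaks, so the lines do not separate clearly in this group.

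**Figure D3:**
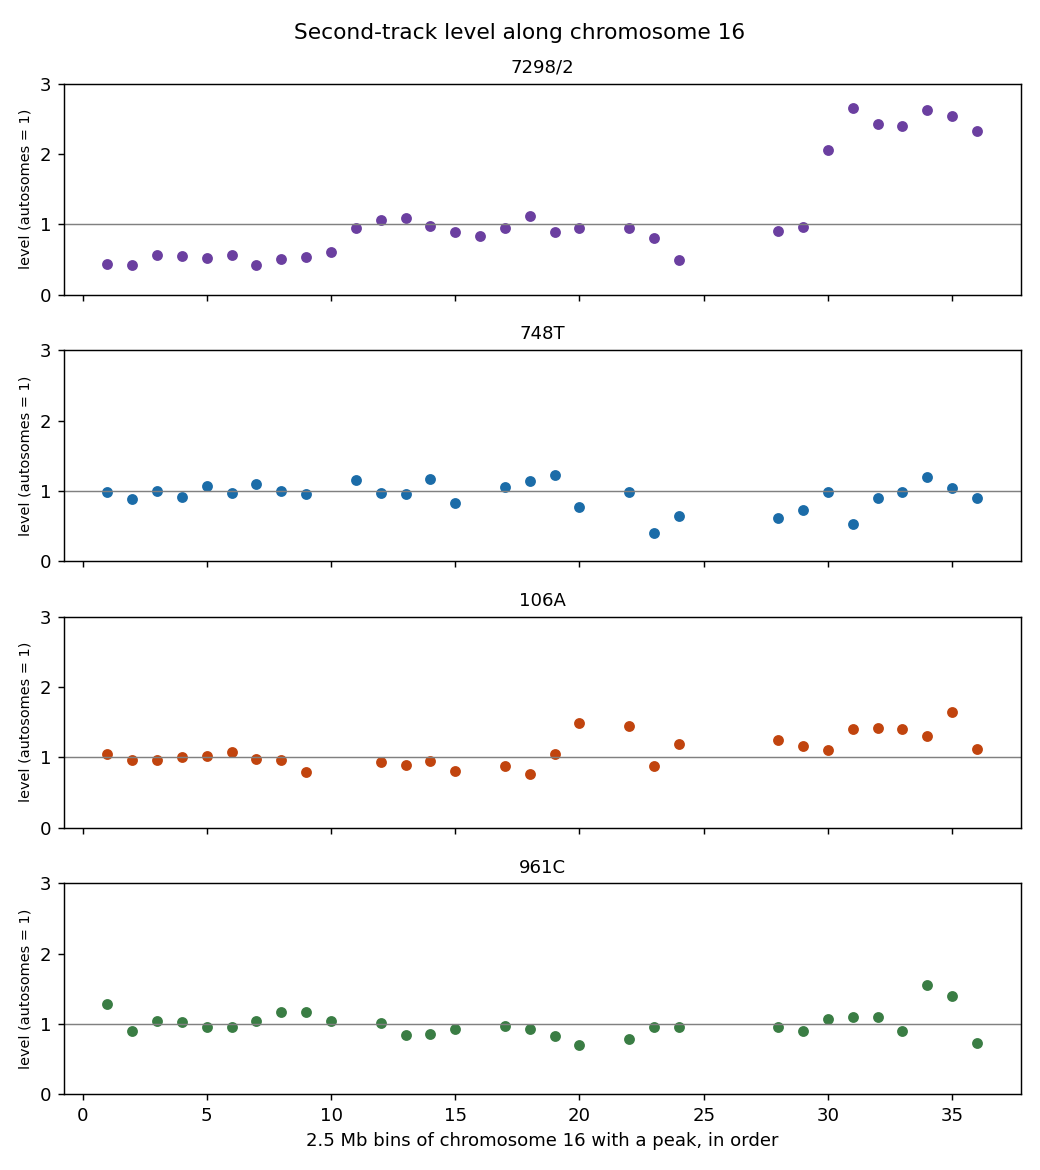
Level of the second track (vertical axis, autosomal mean of each line = 1) in 2.5 Mb bins in order along chromosome 16 (horizontal axis), for bins with at least 3 peaks, in 7298/2, 748T, 106A and 961C. In 7298/2 the bins lie near 0.5, then near 1, then between 2.06 and 2.66, while 106A is raised over its distal bins and 748T and 961C show no such steps.

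A view in bins, free of the segment fit, separated runs of neighbouring bins from scattered ones. Of 492 bins of 5 Mb with a peak, 427 held at least 5 peaks in every line. In 748T 44 of the 427 bins (10.3%) were at least 0.32 above the mean of the other lines on the log2 scale, and 26 of these lay in runs of 3 or more neighbours, all on chromosomes 14 and 15. For 106A the count was 29 bins (6.79%), 22 of them in runs on chromosomes 3, 5 and 16. In 961C 34 bins (7.96%) were raised and 0 lay in a run. Line 7298/2 had 31 raised bins (7.26%), 9 of them in runs on chromosomes 6 and 16. Raised bins outside runs, 18 in 748T, 7 in 106A and 34 in 961C, against 22 in 7298/2, were scattered, and their number was highest in the shallow track of 961C.

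Lowered bins, 0.32 or more below the mean of the other lines on the log2 scale (0.8 times), were mostly scattered. They numbered 49 in 748T (11.5%), 34 in 106A (7.96%) and 40 in 961C (9.37%), against 19 in 7298/2 (4.45%), with 5, 7, 8 and 5 of them in runs. The runs of 7298/2 on proximal chromosome 16 and of 961C on chromosome 13 held low levels of their own. The runs on distal chromosome 16 in 748T and 961C, and on chromosome 14 in 106A, lay where another line was raised, although 748T was also low on its own scale there (0.814 ± 0.203 over 5 bins). The chromosome 14 runs of 106A were likewise low on its own scale, at 0.863 ± 0.122 over 4 bins and 0.846 ± 0.0945 over 3, with 4 and 2 of these bins below all other lines. In 961C, for example, the run from 85 to 100 Mb on chromosome 16 had a level of 1.103, and its ratio of 0.687 was set against a level of 2.49 in 7298/2. Against the median of the other lines, 5 of 5 bins of the chromosome 16 run of 748T and 2 of 3 of that of 961C stayed at or below 0.8. In the chromosome 14 runs of 106A, 0 of 4 and 1 of 3 bins did so. Likewise, the whole-chromosome ratios of 0.812 for chromosome 14 of 106A, 0.842 for chromosome 15 of 961C and 0.848 for chromosome 15 of 7298/2 became 0.925, 0.913 and 0.918 against the median.

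**Figure D4:**
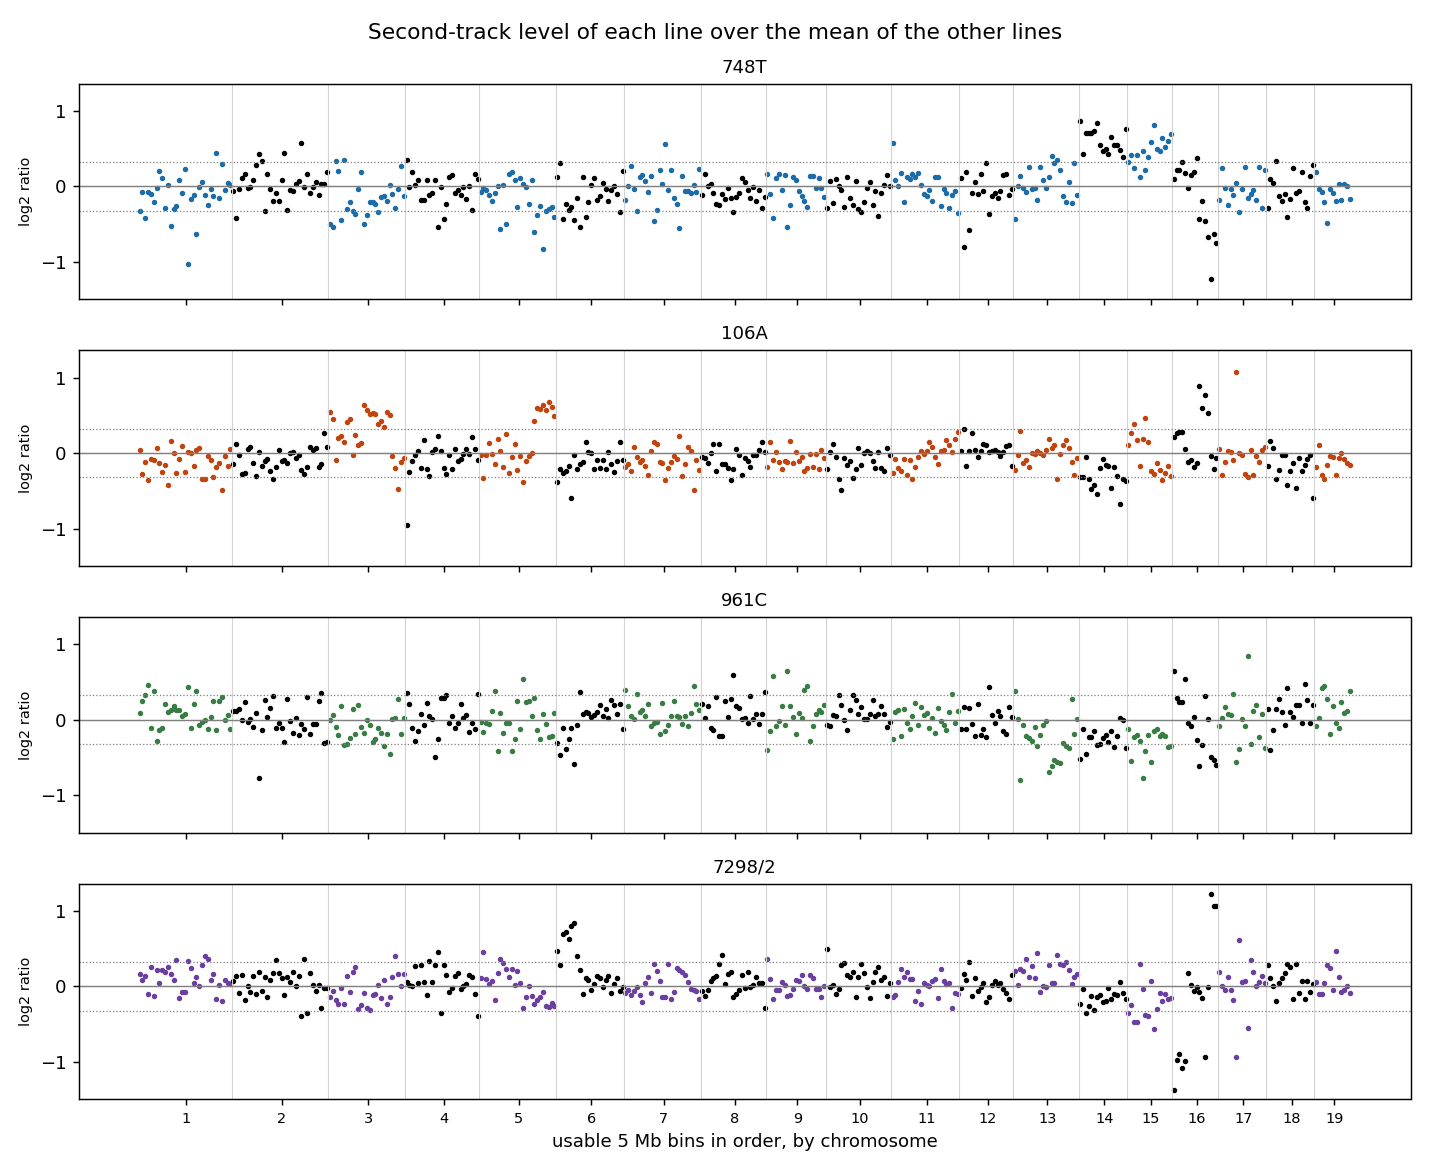
Log2 of the level of each line over the mean of the other lines (vertical axis) in 427 bins of 5 Mb in genome order (horizontal axis), in alternating colours by chromosome, for 748T, 106A, 961C and 7298/2. Dotted lines mark 0.32 above and below 0. Runs of raised bins stand on chromosomes 14 and 15 of 748T, on 3, 5 and 16 of 106A, and on 6 and 16 of 7298/2, and 961C has a run of lowered bins on chromosome 13.

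Single peaks carried a very high second track, and 1 apparent stretch rested on them. On chromosome 17 of 106A the segment fit gave 36451854 to 39985769 a level of 15.1 over 9 peaks. Of these, 2 peaks, at 39979999 and 39985221, had levels of 57.96 and 53.79, or 90.9 and 84.3 reads, and without peaks above 10 times the mean the segment read 0.994. Peaks within the same few kilobases were high in the other NP23 lines, at 48.2 in 748T and 27.5 in 961C, and 7298/2 had no member peak there. A peak on chromosome 19, starting at 61275488 in 748T, was high in each line, at 15.1 in 748T, 10.7 in 106A and 20.2 in 961C, against 8.38 in 7298/2. Peaks above 10 times the mean numbered 5 in 748T, 3 in 106A and 10 in 961C, against 0 in 7298/2. These places were narrow, and those on chromosomes 17 and 19 were high in several lines. In 7298/2, by contrast, 7 of the 10 highest peaks lay on distal chromosome 16, at levels from 3.23 to 4.24.

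The height of H3K4me3 itself, a column that the choice of peaks and the profile did not use, moved in the same direction as the second track. Relative to the autosomal mean height of each line and to the median of the other lines, it was 1.28 times as high on chromosome 14 and 1.21 times on chromosome 15 of 748T. In 106A it was 1.202 times as high on the middle of chromosome 3, 1.24 times at the end of chromosome 5, 1.17 times on proximal chromosome 15 and 1.21 times on distal chromosome 16. It was 0.863 times on chromosome 13 of 961C. In 7298/2 it was 1.32 times on the chromosome 6 stretch, 0.643 times on proximal and 1.63 times on distal chromosome 16. The second track over the same stretches, on the same scale, was 1.49 and 1.46 times in 748T, 1.39, 1.49, 1.31 and 1.35 times in 106A, 0.853 times in 961C, and 1.70, 0.494 and 2.22 times in 7298/2. Each stretch thus moved the same way in both columns, and the change in height was the smaller, on chromosome 13 of 961C as a whole only slightly so. Both columns come from the same cells and regions, and whether the second track enters the height of the mark was not tested.

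**Figure D5:**
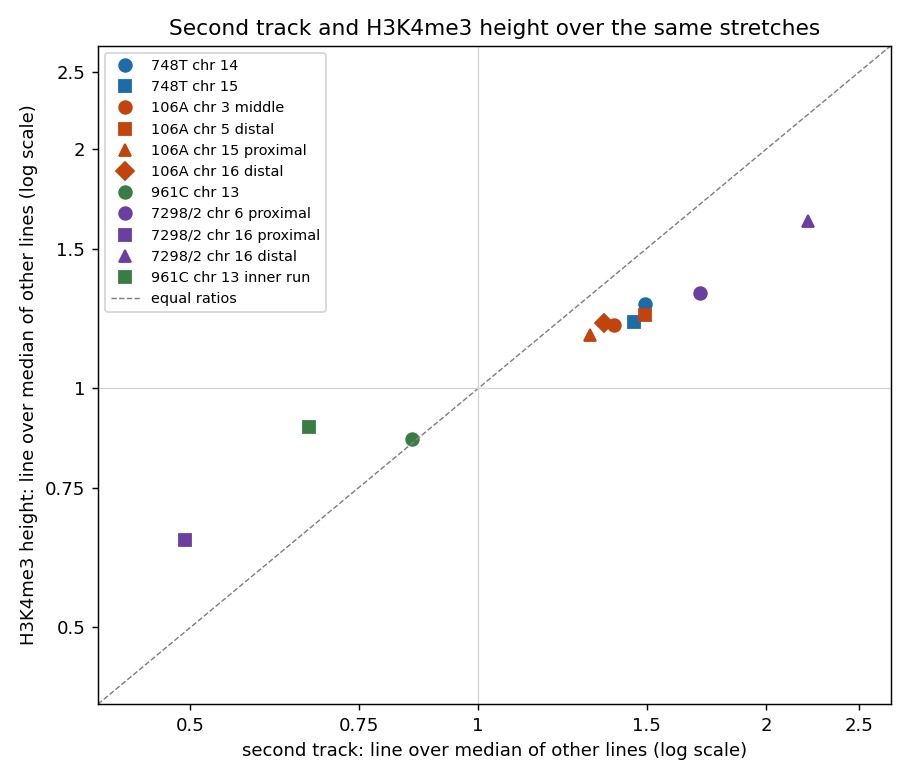
H3K4me3 height (vertical axis, log scale) against second track (horizontal axis, log scale), each as the line's level over the median of the other lines, for the raised and lowered stretches of 748T, 106A, 961C and 7298/2. Every point is on the same side of 1 in both, and nearer to 1 in height than in the second track. Chromosome 13 of 961C as a whole lies close to the dashed line of equal ratios (0.863 and 0.853). Its inner run lies away from that line (0.895 and 0.665).

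Regions that carry the repressive mark H3K27me3 and no H3K4me3 peak gave a reading from other parts of the same stretches. Over them the level of the second track was 1.45 on chromosome 14 and 1.92 on chromosome 15 in 748T, from 339 and 622 peaks. In 106A it was 1.56 on the middle of chromosome 3, 1.54 at the end of chromosome 5 and 1.37 on distal chromosome 16, but only 1.13 on proximal chromosome 15 (69 peaks). It was 0.509 on chromosome 13 in 961C, lower than over H3K4me3 peaks. In 7298/2 it was 1.29 on the chromosome 6 stretch, 0.0885 on proximal chromosome 16 (20 peaks) and 3.08 on distal chromosome 16. The direction was the same as over H3K4me3 peaks in each of these stretches, while the sizes differed, in part on few peaks. The 748T values are not beyond those of spans without a raised H3K4me3 reading, since 77.3% of its H3K27me3 peaks had a second track of 0. On chromosome 16 of 748T the H3K27me3 reading was 2.09 between 27388324 and 78578036 and 0.439 between 3743177 and 25178262, against 0.944 and 1.00 over H3K4me3 peaks. The 961C value is likewise not beyond those of other spans, and 37.4% of its H3K27me3 peaks had a second track of 0. On chromosome 3 of 961C, from 131227779 to 159160244, the H3K27me3 reading was 0.433 (25 peaks), against 0.899 over H3K4me3 peaks. Distal chromosome 16 held 219 of the H3K27me3 peaks of 7298/2, or 4.50% of that list, against 1.17% of the 748T list, 1.72% of the 106A list and 1.26% of the 961C list.

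Chromosome X, outside the autosomal set, differed between lines by more than most autosomes. Its level was 0.461 ± 0.121 (SD over 20 bins) in 748T, 0.655 ± 0.114 (21 bins) in 106A, 0.855 ± 0.155 (21 bins) in 961C and 0.518 ± 0.0387 (21 bins) in 7298/2. The levels of 748T and 7298/2 lay near 0.5 and differed by less than the SD of 748T, that of 961C lay highest, and that of 106A lay between. The height of H3K4me3 on X had the same order of lines within a far narrower range, at 0.626 in 748T, 0.670 in 106A and 0.683 in 961C, against 0.651 in 7298/2. The sex of the mice is not known here, and the number of X chromosomes was not measured.

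In all, the raised or lowered segments, the one on chromosome 17 included, held 7.97% of the members in 748T (2 segments, 215 Mb), 8.41% in 106A (5 segments, 206 Mb) and 4.64% in 961C (1 segment, 117 Mb), against 3.15% in 7298/2 (3 segments, 62.1 Mb). The share of members on a chromosome differed little where the level was raised: chromosome 14 held 3.41% of the members in 748T, against a mean of 3.57% in the other lines, and chromosome 15 held 4.56%, against 4.24%. Line 7298/2 had the most members over all autosomes (12746, against 12438 in 748T, 11744 in 106A and 12277 in 961C). In raw counts its stretches also held somewhat more peaks than in the other lines, whatever their level. The chromosome 6 stretch had 151 members in 7298/2, against 127 in 748T, 138 in 106A and 125 in 961C, and distal chromosome 16 had 91, against 80, 75 and 77 in the same order. The lowered proximal part of chromosome 16 had 160, against 153, 150 and 148. Its middle part, at a level near 1, had 182, against 156, 157 and 172. The higher counts were thus not confined to raised stretches.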

How the data were processed

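Peak lists of 4 mouse leukaemia lines were used as the authors deposited them. Chromatin was crosslinked in formaldehyde, sheared by sonication and precipitated with an antibody to H3K4me3 or another target, and GAIIx or MiSeq instruments read the fragments from 1 end, per the labels' protocols. CASAVA 1.9, BWA 0.5.9-r26 and genome build mm9 are named in the submitters' processing notes. No source used here names the peak caller. Each deposited row holds a region and a text field with mean and maximum read heights of the sample and of a second track, which the files do not explain. Whether the track was scaled or smoothed, and the depth behind it, are unknown. In the 4 H3K4me3 lists 4 rows lack it and were left out. The 4 input samples were not used here, so the track was not compared with them.

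For each line, peaks of 500 bp or more on chromosomes 1 to 19 were kept, and the width-weighted mean of the second track per chromosome, 5 Mb bin or stretch was divided by the autosomal one. Ratios compare a line with the mean of the other 3. Bins needed 5 peaks in each line, runs needed 3 neighbouring usable bins past the fold, and chromosomes were named past the fixed folds. Added after seeing the data were ratios to the median of the other lines and a piecewise-constant fit of the track along each chromosome (values capped at 5 times the mean, at least 8 peaks a segment, penalty of 6). The fit recovered planted steps to 0.5, 1.5 and 2.5 times in data simulated at the share of zeros seen in the files. Smaller steps, such as the 0.783 of 961C or the 1.30 and 1.34 of 106A, were not planted, so their recovery was not tested. Under a noisier simulation the fit missed some planted stretches in the shallow 748T and 961C tracks, so further steps there may be undetected. Python 3.11.15, numpy 2.4.6 and pandas 2.3.3 were used. With 1 library a line, nothing was tested. Alternatives changed the average, width limit, peak set, scale, reference, bin size and fold. The members and lists were chosen with earlier results of these data known. The 10 highest peaks of each line, and the 5 highest and 5 lowest bins, fell under the rule for naming.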

Additional observations from a re-analysis of the deposited data

Results flagged for a closer look

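Peaks on chromosome Y, outside the autosomal members, were listed in 961C alone. Its H3K4me3 list held 3 peaks on Y, 106 to 169 bp wide, with a highest second track of 0. It also held 14 on unplaced Y sequence, whose widths and second track were not summarised. The H3K4me3 lists of 748T, 106A and 7298/2 held 0 of either kind. The 3 peaks on Y are under the 500 bp limit used for members, and the source of the Y peaks was not tested.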

How the results depend on the processing

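The ratios of whole chromosomes kept their size within the spread of their bins under 84 of 88 alternatives. The naming folds were missed under 6 of 11 alternatives by chromosome 13 of 961C (0.818 to 0.872). They were missed under 4 of 11 by chromosome 5 of 106A (1.14 to 1.24) and chromosome 15 of 7298/2 (0.786 to 0.960). Chromosome 14 of 106A and chromosome 15 of 961C missed them under 3 of 11 each. Chromosomes 14 and 15 of 748T and 3 of 106A stayed past them under all 11. The maximum in place of the mean of the track gave 1.31 for chromosome 14 of 748T. The low ratio of chromosome 14 of 106A became 0.925 against the median of the other lines, and ranged from 0.756 to 0.940 with each other line left out of the reference, highest without 748T. That of chromosome 15 of 961C ranged from 0.782 to 0.952, again highest without 748T. The share of usable bins called moved by over 1.5 times under 15 of 120 alternatives. With stricter folds (1.4 and 0.7), 5.15% of bins were raised and 3.98% lowered in 748T, 1.17% lowered in 106A, 1.64% raised and 3.75% lowered in 961C, and 2.34% raised and 2.11% lowered in 7298/2. With maximum heights the lowered share was 6.32% in 748T and 4.68% in 106A. With 10 Mb bins it was 6.48% in 748T and 4.86% in 106A, and the raised share of 961C was 4.86%. For 106A the lowered share was 4.22% on a median scale and 4.13% with 10 peaks a bin. Leaving lines out of the reference gave 5.62% to 6.79% lowered bins in 7298/2, most without 106A.

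The 106A segment on chromosome 17 fell below 1 with the median of nonzero peaks (0.991), with peaks shared by all lines (0.949) and without peaks over 10 times the mean (0.994). The other stretches kept their direction under every alternative run: chromosome 14 of 748T lay between 1.28 and 1.51, distal chromosome 16 of 7298/2 between 1.85 and 2.54, its proximal part between 0.479 and 0.588, and chromosome 13 of 961C between 0.764 and 0.805. A penalty of 4 gave 961C 2 called segments in place of 1, the added one of 8 peaks on chromosome 17, and gave 106A 6 in place of 5, by dividing chromosome 3. A penalty of 12 gave 106A 4, without the one on chromosome 17, and started the chromosome 6 segment of 7298/2 at 3290575 with a level of 1.43. The X levels and chromosome profiles moved by less than their spread in 8 of 8 alternatives each. No paired analysis was possible because each line and antibody has 1 sample. The track of 748T and 961C is shallow, and each line has 1 library.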
